A study of Mus musculus with 26 samples.

Results

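The 5′ UTR regions described here are stretches of the mouse genome in which the summit of a 5-hydroxymethylcytosine (5hmC) peak fell in the 5′ untranslated region of a protein-coding transcript and in no coding sequence (CDS) or 3′ UTR. Peaks of 13 immunoprecipitated libraries were pooled, and kept intervals that overlapped by at least 1 bp were merged. This gave 1135 regions from 2129 of the 56538 peaks. Peaks of all kinds, merged separately, gave 23367 regions. The lists were made by hMeRIP-Seq, in which fragmented total RNA is precipitated with an anti-5hmC antibody and sequenced, and enriched stretches are called as peaks over the unprecipitated input. Each peak is an interval of 200 bp around its summit. All values below come from peak positions and, in 9 libraries, from the fold enrichment of the precipitate over its input at the summit, which is a ratio. The read depth behind a list is unknown, so the lack of a peak says only that none passed the caller's threshold there.

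The libraries fell into 5 groups. WT ESC were wild-type mouse embryonic stem cells grown with LIF (n = 3). TKO ESC were stem cells with Tet1, Tet2 and Tet3 knocked out (n = 3). WT EB were embryoid bodies, made from wild-type stem cells kept for 4 days without LIF (n = 3). Tet2-KI ESC carried a tag on endogenous Tet2, inserted with CRISPR (n = 2), and Tet2deltaRBD-KI ESC carried the tagged Tet2 lacking its RNA-binding domain (n = 2). A prefix of the sample descriptions, taken here as a batch, is 1703 for replicates 2 and 3 of these first 3 groups, 1608 for replicate 1 of both stem cell groups and 1610 for replicate 1 of the embryoid bodies; the knock-in libraries have none. The study describes its hMeRIP-Seq replicates as independent experiments, while the labels do not tie a library to a culture, and p-values measure the spread between these libraries. Peak lists cannot show whether Tet1, Tet2 and Tet3 RNA was lost.

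Tet enzymes oxidise 5-methylcytosine to 5hmC in DNA, and they can also act on RNA. The 5′ UTR is the stretch of an mRNA that a ribosome subunit scans from the cap to the start codon. It is often rich in G and C, because many mammalian genes begin inside CpG islands, and its folding and upstream reading frames are known to bear on how well an mRNA is translated.

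The base sequence at the summit is shown first for the 6 regions that carried a peak in every WT ESC and every TKO ESC library, then for the 6 regions with the highest lowest fold enrichment in WT ESC among those that carried a peak in every WT ESC library and in no TKO ESC library. Each is 30 genomic bases of build mm9 centred on the summit of the highest peak, read on the strand of the transcript, with CpG dinucleotides in capitals.
Peo1, chr19:45081349-45081378, plus strand: cCGtaaaggacctagagataggagaatcct
Arhgap11a, chr2:113688638-113688667, minus strand: gcCGgctggccCGgctggagggagtagctt
Cdk19, chr10:40069293-40069322, plus strand: gCGCGCGccCGagCGaCGgctgttggagaa
Syncrip, chr9:88377248-88377277, minus strand: ggcCGCGgaCGggagtggggaagctggggg
Rimklb, chr6:122436180-122436209, minus strand: CGgcatccCGccccctccccctcctcagCG
Abl2, chr1:158489059-158489088, plus strand: ggcccagagggcctgggcttgggcCGgaga
Mtch1, chr17:29484090-29484119, minus strand: ttggtgaatgggtagatgagggctggctgg
Tmtc2, chr10:105010993-105011022, minus strand: cccCGgagcaCGcaggaacagCGgagccCG
Ubac1, chr2:25877110-25877139, minus strand: ggccCGgcccCGcccctggtcctccCGcca
Snrpe, chr1:135506653-135506682, minus strand: ggggagcCGggcagccCGctgCGggcCGct
Ywhaz, chr15:36723472-36723501, minus strand: gCGCGCGcaggggagCGgCGgttgCGcCGg
Zfp574, chr7:25862430-25862459, plus strand: gtcCGgccccaccCGgCGgcttgcctgCGt
Of the 12 stretches 11 held at least 1 CpG. The stretch of Mtch1 held none, and that of Ywhaz held 7, the most of the 12. Peo1 had the lowest G and C content of the 12, 46.7%, followed by Mtch1 with 56.7%.

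The regions were far richer in G and C than peaks elsewhere in genes. The median GC content of the 1135 regions, taking 1 interval of 200 bp each, was 72.5% (quartiles 67.5% and 75.5%), and 66.5% of them reached 70%. Windows of the same size at the middle of the 5′ UTR of each of 19906 coding genes had a median of 60.5%, and 23.8% of them reached 70%. The genes that held a region were themselves GC-rich there: the middle of their 5′ UTR had a median GC content of 71.5%, against 60.0% in the genes without a region. The median 5′ UTR was 298 nt in the former and 144 nt in the latter. A window of 200 bp can therefore share bases with the peak interval in the former, and reach past the 5′ UTR in the latter. CDS regions had a median of 49.5% (4473 regions), against 51% in windows at the middle of the CDS, but a wider spread: 15.9% of them reached 70%, against 1.64% of the windows, and the upper quartile was 65%, against 57%.

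The difference held within each library. The median GC content of 5′ UTR peaks was between 69.0% (WT EB replicate 2) and 77.0% (TKO ESC replicate 2), and that of CDS peaks between 41.0% and 70.5%. The 5′ UTR median was higher in 13 of 13 libraries, by 22.8 percentage points ± 7.43 on average (SD, n = 13, two-sided exact sign-flip test over libraries, p = 0.000244, the smallest this test can give). The smallest difference, 4.0 points, was that of Tet2deltaRBD-KI ESC replicate 2, whose CDS peaks had a median GC content of 70.5%, while the CDS medians of the other 12 libraries did not pass 54.0%. Against 3′ UTR peaks the mean difference was 26.3 points ± 4.59, and against intronic peaks 27.1 points ± 3.45. CpG dinucleotides followed the same order: the median 5′ UTR peak held between 19.5 and 27.0 of them in 200 bp, and the median intronic peak 1 or 2.

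**Figure D1:**
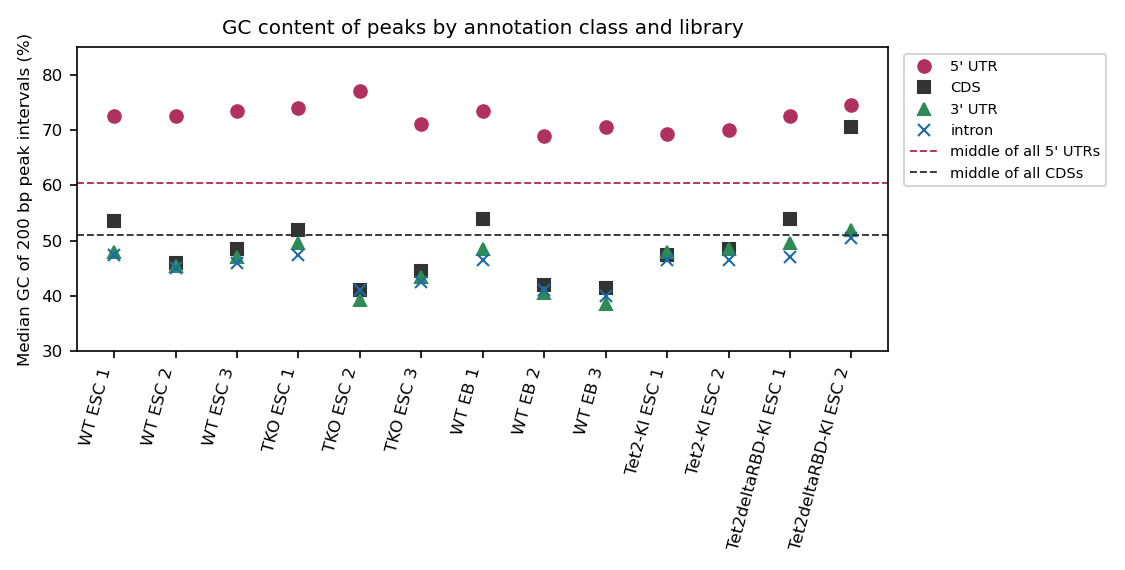
Median GC content (%) of the 200 bp peak intervals of each library, by annotation class, on the vertical axis, with the 13 libraries on the horizontal axis; dashed lines give the median of windows at the middle of all annotated 5′ UTRs and CDSs. In every library the 5′ UTR peaks lie above the 60.5% line, and only the CDS peaks of Tet2deltaRBD-KI ESC replicate 2 come near them.

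On the strand of the transcript the regions held fewer pyrimidines than purines. The median share of C and T was 45.5% over the 1124 regions with 1 strand, against 49.5% in the windows at the middle of all 5′ UTRs. Within libraries, 5′ UTR peaks were richer in pyrimidines than CDS peaks by 3.33 percentage points ± 1.85 (SD, n = 13, exact sign-flip test, p = 0.000244, higher in 13 of 13 libraries) and poorer than 3′ UTR peaks by a mean difference of -2.94 points ± 3.36 (p = 0.0137, exact sign-flip test, lower in 11 of 13). Short motifs were searched on the transcript strand only and allowed to overlap. GGCGGC was found in 47.7% of regions against 21.9% of the 5′ UTR windows, and GAGGAG in 32.1% against 17.2%. Of their reverse complements, which are rich in pyrimidines, GCCGCC was also found more often in the regions, in 31.7% against 17.3%, and CTCCTC less often, in 11.5% against 14.3%. TCTCTC was found in 3.88% of regions and in 8.67% of the windows, and the purine motif GAAGAA in 6.08% against 7.73%. A run of at least 18 nt of a repeated unit of 1 to 3 nt, or of 20 nt for a unit of 4, stood in 32 regions (2.82%, against 2.30% of the windows), and in 13 of these the unit was CGG or a rotation of it.

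Regions seen in few and in many libraries had the same median GC content and different median pyrimidine shares. The median GC content was 72.5% in the 708 regions seen in 1 library and 72.5% in the 29 regions seen in 7 or more. The median pyrimidine share was 46.5% in the former and 40.5% in the latter, with 44.5% for regions in 2 or 3 libraries and 43.0% for those in 4 to 6. GAGGAG was found in 29.5%, 33.3%, 42.1% and 48.3% of the regions of these classes in order of breadth. These shares are descriptions without a test, since regions share libraries.

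Summits lay mostly in the first exon. The distance was counted along the spliced transcript with the longest CDS among those whose 5′ UTR held the summit. The median distance from the transcript start was 161 nt (quartiles 111 and 220 nt), and 46.9% of the regions had their summit more than 100 and at most 200 nt into the transcript. The median distance to the start codon was 125 nt (quartiles 58.0 and 250.5 nt), and 23.0% lay within 50 nt of it. The first exon held the summit in 1066 regions (93.9%). The 200 bp interval covered the start codon in 365 regions (32.2%), reached upstream of the annotated transcript start in 232 (20.4%) and reached into an intron of the transcript in 361 (31.8%). Regions whose interval covered the start codon had a median GC content of 72.0%, and the others of 72.5%.

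The host 5′ UTRs were long. The median 5′ UTR of the genes with a region was 298 nt, against 144 nt in genes without, and 75.9% of the former reached 200 nt against 39.0% of all coding genes. A longer 5′ UTR also offers more bases in which a summit can fall. Of the regions, 24.4% had their summit in the first of 3 equal parts of the 5′ UTR, 38.2% in the middle part and 37.4% in the last. A gene on the other strand lay over the summit in 87 regions (7.67%), and 11 regions lay in 5′ UTRs of both strands. The lists record no strand, so the transcript of origin cannot be told apart there. Of the 2129 peaks, 71.3% had a summit that was in no intron of another coding transcript.

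**Figure D2:**
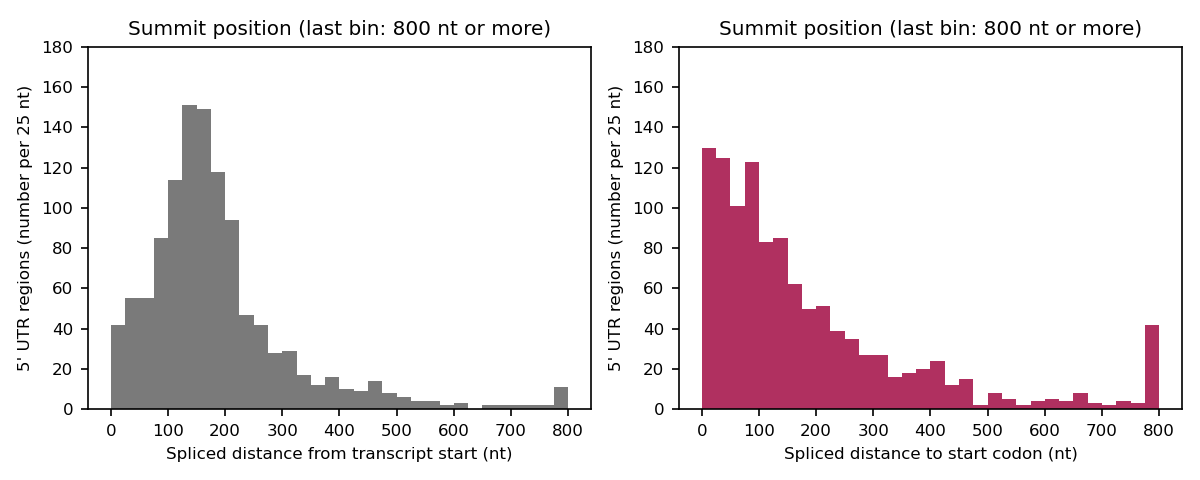
Number of 5′ UTR regions per 25 nt of spliced distance from the transcript start (left) and to the start codon (right), both in nt, with 1 summit per region and all distances of 800 nt or more in the last bin. Distances from the transcript start peak around the median of 161 nt, while distances to the start codon are most frequent in the first bins and fall off.

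The regions belonged to 1092 genes by symbol, 5.51% of the 19818 with an annotated 5′ UTR. The counts for gene families are set beside this share as a description, with no test. Of the Polycomb genes, which encode the repressor complexes PRC1 and PRC2, 6 of 30 held a region. The counts were 9 of 35 for histone lysine methyltransferases and demethylases, 9 of 37 for SR proteins and hnRNPs, which bind and process RNA, and 13 of 38 for LIF, FGF and Wnt signalling. Factors of DNA methylation and demethylation gave 4 of 20, factors of RNA cytosine and adenine methylation, which include an eraser, 4 of 25, mRNA decay factors 6 of 48, translation initiation factors 6 of 49, and proto-oncogenes and growth regulators 6 of 39. BAF and NuRD remodelling subunits gave 2 of 27, in a list without Mbd3, which is counted under DNA methylation, and core pluripotency factors 3 of 27. Ribosomal protein genes, whose transcripts are abundant in stem cells and have short 5′ UTRs, held a region in 4 of 80 (5.00%), and early differentiation markers in 0 of 26. A region in 3 or more libraries was held by 5 of 30 Polycomb genes, 3 of 37 SR proteins and hnRNPs and 2 of 38 signalling genes. The counts were 1 of 35 for histone lysine enzymes and 0 of 25 for RNA methylation, beside 1.11% of all coding genes with a 5′ UTR. No level of expression was used here for these genes, so these counts are not adjusted for it or for 5′ UTR length. Among 9 genes that the study names, 4 held a region.

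Presence differed much between libraries. The 3 WT ESC libraries held 205, 124 and 178 5′ UTR peaks, the TKO ESC libraries 62, 55 and 40, and the WT EB libraries 33, 25 and 63. The WT ESC numbers did not overlap with either of the other groups. The Tet2-KI ESC libraries held 300 and 246, and the Tet2deltaRBD-KI ESC libraries 267 and 531. The mean log2 number was 1.68 higher in WT ESC than in TKO ESC and 2.15 higher than in WT EB (two-sided exact permutation test, p = 0.1 for each, the smallest that 3 against 3 libraries allow). These 2 comparisons share the WT ESC libraries. Between the knock-in groups the difference was -0.47 on the log2 scale (Tet2-KI ESC minus Tet2deltaRBD-KI ESC, exact permutation p = 0.667, where 2 against 2 cannot go below 0.33). Without Tet2deltaRBD-KI ESC replicate 2 it was 0.025, with no test.

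The whole lists differed in length too, with 498 peaks in the shortest (WT EB replicate 1) and 10383 in the longest (replicate 1 of Tet2-KI ESC), and the share of 5′ UTR peaks told another story than their number. In the WT ESC libraries it was 4.66%, 1.74% and 2.74%, in TKO ESC 6.43%, 1.27% and 1.23%, and in the embryoid bodies 6.63%, 1.37% and 1.78%. Replicate 1, the one outside the 1703 batch, had the highest share in each of the 3 groups. Means of the share were 3.26% ± 2.92 for WT EB, 3.05% ± 1.49 for WT ESC and 2.98% ± 2.99 for TKO ESC (SD, n = 3), and the differences were within the spread between replicates (exact permutation p = 1 for WT ESC minus TKO ESC and p = 0.9 for WT ESC minus WT EB). Within the 1703 batch the WT ESC shares were both above those of TKO ESC, by 0.99 percentage points on average (exact permutation p = 0.33, the smallest 2 against 2 allow), whereas in the batch of replicate 1 the TKO ESC share was above that of WT ESC. With each of the 9 lists shortened to its 498 highest peaks, the embryoid body libraries kept 33, 6 and 7, the WT ESC libraries 20, 9 and 6 and the TKO ESC libraries 15, 2 and 6, and the groups overlapped.

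In the knock-in cells the shares were 2.89% and 4.26% in Tet2-KI ESC and 5.76% and 16% in Tet2deltaRBD-KI ESC, so the groups did not overlap (difference -7.31 points, exact permutation p = 0.33). The difference was -2.18 points without Tet2deltaRBD-KI ESC replicate 2 and -12.4 without replicate 1, both with no test. The second Tet2deltaRBD-KI ESC library stood apart from all the others. Its 531 5′ UTR peaks were 16% of its 3318 peaks (exact 95% interval 14.8% to 17.3%, for counting error only). Of its 5′ UTR peaks 84.0% had a GC content of at least 70%, and of its CDS peaks 53.2% did, where the median library had 10.0% of CDS peaks that rich. It alone held 271 of the 708 regions seen in a single library. Whether the GC content of this library bears on its number of 5′ UTR peaks was not tested. As a share of exonic peaks, the 5′ UTR took between 3.38% and 34.6%, while 10.0% of the annotated exonic bases of coding transcripts lie in 5′ UTRs. This share averaged 15.2% ± 5.18 in WT ESC, against 7.80% ± 6.93 for WT EB and 8.44% ± 6.32 for TKO ESC (SD, n = 3). The WT ESC libraries overlapped with both other groups (exact permutation p = 0.3 for each).

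**Figure D3:**
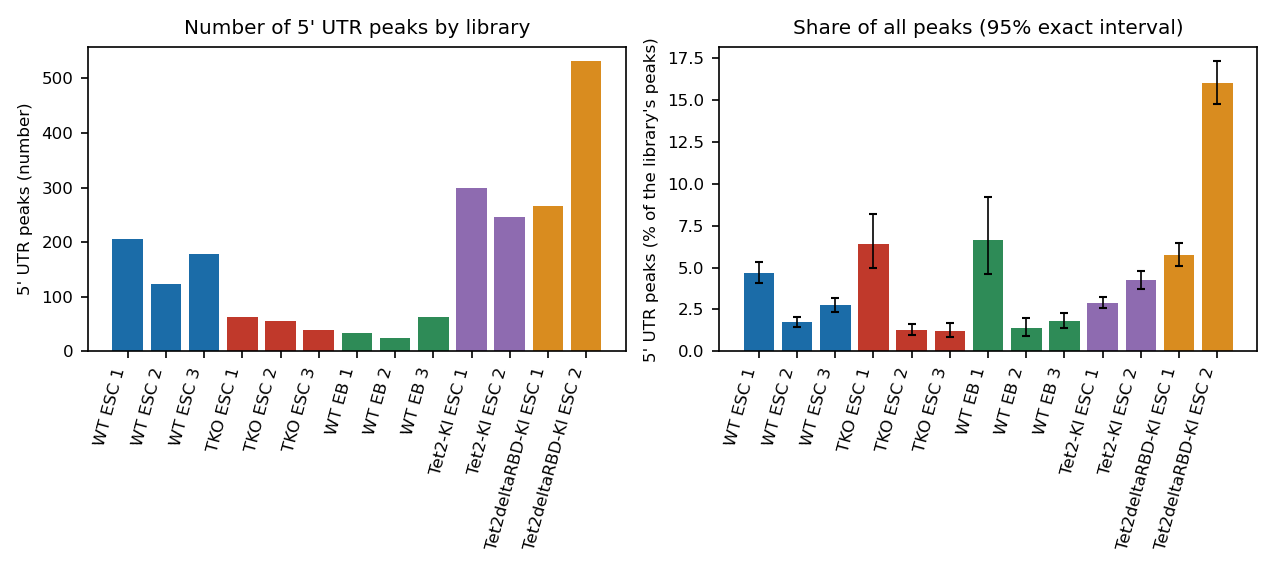
Number of 5′ UTR peaks (left) and their share of the library's peaks in % (right) for each of the 13 libraries, coloured by group, with exact 95% intervals for counting error on the share. The numbers of WT ESC lie above those of TKO ESC and WT EB, while within each of these 3 groups the share is highest in replicate 1. Tet2deltaRBD-KI ESC replicate 2 has the highest share of all 13, at 16%.

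Few regions were seen widely. Of the 1135, 708 (62.4%) had a peak in 1 library, 205 in 2 and 222 (19.6%) in 3 or more. For all merged regions these shares were 53.6% in 1 library and 28.3% in 3 or more, and for CDS regions 54.9% and 27.5%. They were 56.1% and 26.6% for intronic regions and 60.0% and 23.3% for 3′ UTR regions, the class nearest to the 5′ UTR. No 5′ UTR region was present in all 13 libraries, and 29 were present in 7 or more. A peak was found in any library of the group for 641 regions of Tet2deltaRBD-KI ESC, 439 of Tet2-KI ESC, 349 of WT ESC, 123 of TKO ESC and 102 of WT EB. Every library of the group held it in 145, 99, 42, 7 and 1 of them, respectively. Only 14 regions had a peak in all 5 groups, and 790 (69.6%) in 1 group.

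The overlap of 2 libraries was given as the Jaccard index, the regions held by both over those held by either. Its mean was highest within WT ESC, at 0.235, with 0.133 within TKO ESC and 0.0978 within WT EB, and 0.226 in each knock-in pair. Between WT ESC and TKO ESC it averaged 0.108, and between WT ESC and WT EB 0.0646. The index cannot pass the number of regions of the smaller library over that of the larger. WT ESC libraries held 122 to 198 regions, those of TKO ESC 40 to 58 and those of WT EB 25 to 63. A lower index between these groups therefore cannot be told apart from the difference in list length. Pairs within WT ESC or TKO ESC had a mean index 0.0767 above that of pairs between these groups, and for WT ESC and WT EB the difference was 0.102 (one-sided exact permutation test, p = 0.1 for each, the smallest possible). The first became 0.043 without WT ESC replicate 3 (exact p = 0.2) and the second 0.0592 without WT ESC replicate 3 (exact p = 0.2) and 0.168 without WT EB replicate 1 (exact p = 0.1). Not every pair followed this order. TKO ESC and WT EB libraries shared 0.103 on average, more than the WT EB libraries among themselves, and Tet2-KI ESC replicate 2 shared 0.245 with Tet2deltaRBD-KI ESC replicate 1, more than either knock-in pair. The highest value between groups was 0.275, between a TKO ESC and a WT EB library of the 1703 batch. The median fold enrichment was 5.54 for regions in 1 of the 9 libraries and 5.78 for those in 5 or more.

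Within libraries the fold enrichment of 5′ UTR peaks was near that of CDS peaks. The median of 5′ UTR peaks ran from 4.74 in WT ESC replicate 2 to 7.61 in WT EB replicate 2. The log2 difference from CDS peaks was -0.08 ± 0.14 (SD, n = 9, two-sided exact sign-flip test, p = 0.0977, lower in 6 of 9 libraries), which became -0.11 with p = 0.0469 (exact) without WT EB replicate 1. Against 3′ UTR peaks it was -0.24 ± 0.22 (p = 0.0195, exact sign-flip test, lower in 7 of 9) and against intronic peaks -0.18 ± 0.17 (p = 0.0273, exact, lower in 7 of 9).

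The 12 most widespread regions, chosen for the number of libraries with a peak, were led by Peo1 and Arhgap11a, each in 12 of 13 libraries. Peo1 encodes the mitochondrial DNA helicase Twinkle. Its region (chr19:45081056-45081472, plus strand, summit 256 nt before the start codon in the first exon) lacked a peak in WT EB replicate 1 alone. Its fold enrichment was 10.4, 18.3 and 7.97 in the WT ESC libraries, then 6.08, 31.6 and 4.15 in those of TKO ESC, and 18.1 and 20.6 in replicates 2 and 3 of the embryoid bodies. The value of 31.6, in TKO ESC replicate 2, was the highest of any 5′ UTR peak, and the groups overlapped. The interval of the highest peak had a GC content of 49.0%, and a summit in it lay in an intron of another coding transcript. Arhgap11a, a GTPase-activating protein, had its region at chr2:113688262-113688759 on the minus strand, with values of 6.28, 6.28 and 6.18 in WT ESC and 5.13, 3.66 and 5.87 in TKO ESC.

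Cdk19, a kinase of the Mediator complex, Syncrip, the RNA-binding protein hnRNP Q, and Rimklb, a ligase that couples glutamate, each had a region in 11 libraries. Cdk19 (chr10:40069183-40069476, plus strand, summit 92 nt before the start codon) had fold enrichments of 16.05, 20.03 and 13.2 in WT ESC and of 6.85, 6.51 and 9.38 in TKO ESC, so the 2 groups did not overlap. In WT EB it was 19.3 and 17.3 in replicates 1 and 2, and no peak was called in replicate 3. Syncrip (chr9:88377139-88377381, minus strand) had 5.70, 14.2 and 7.74 in WT ESC and 5.05, 5.66 and 10.3 in TKO ESC. Rimklb (chr6:122436095-122436324, minus strand) had 8.505, 11.03 and 9.31 in WT ESC and 5.06, 3.69 and 11.96 in TKO ESC. Abl2, a non-receptor tyrosine kinase with a region in 10 libraries, had no peak in any WT EB library.

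These 6 regions were the only 5′ UTR regions with a peak in all 6 libraries of WT ESC and TKO ESC. The mean fold enrichment was higher in WT ESC for 5 of the 6, beside 52.3% of the 283 regions of all kinds with a peak in all 6 libraries, the exception being Peo1 (12.2 ± 5.39 against 13.9 ± 15.3, SD, n = 3). For Cdk19 it was 16.4 ± 3.42 against 7.58 ± 1.56, a ratio of 2.17 (exact permutation p = 0.1 on log2 values, the smallest possible), and for Arhgap11a 6.25 ± 0.0574 against 4.89 ± 1.13, a ratio of 1.28 (exact permutation p = 0.1). Every WT ESC value was above every TKO ESC value in these 2 of 6 regions, against 7.07% of the 283. In none of the 6 was every WT ESC value below every TKO ESC value, against 2.47% of the 283. With 6 regions, these shares cannot be set apart.

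Others of the 12 were Ep300, a histone acetyltransferase, Senp3, a SUMO protease, Hnrnpd, which binds AU-rich elements of mRNA, Trim71, an RNA-binding ubiquitin ligase of early embryos, and Mtf2, an accessory subunit of PRC2. The first 4 were in 9 libraries and Mtf2 in 8, and the regions of Ep300, Senp3 and Hnrnpd were found in the same 9 libraries: all of WT ESC, replicate 1 of TKO ESC and of WT EB, and the 4 knock-in libraries. In these 3 regions no TKO ESC or WT EB library of the 1703 batch had a 5′ UTR peak. Trim71 went the other way, with a peak in every TKO ESC library (2.37, 2.95 and 3.78) and in 1 WT ESC library, replicate 1 (2.20).

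**Figure D4:**
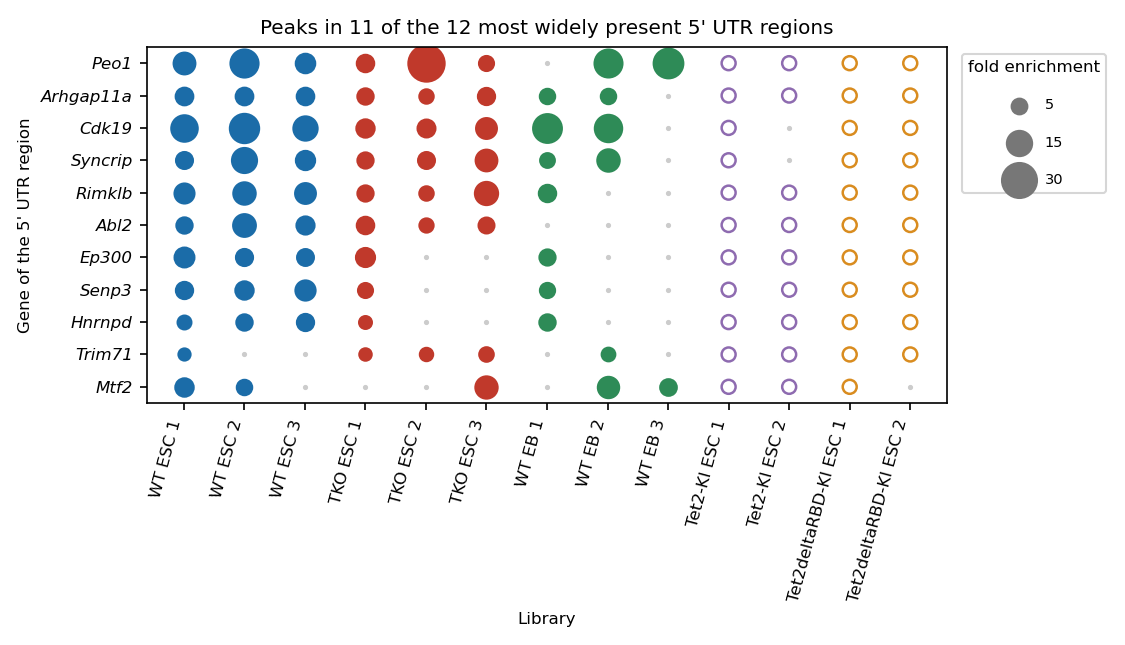
Peaks in 11 of the 12 most widely present 5′ UTR regions (rows, by gene) in the 13 libraries (columns, coloured by group). The area of a filled circle grows with the fold enrichment (ratio to input), open circles are knock-in libraries whose lists hold positions only, and grey dots mark that no peak was called; the 6 upper genes have a peak in all WT ESC and TKO ESC libraries, and Ep300, Senp3 and Hnrnpd share 1 pattern.

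The comparison of WT ESC with TKO ESC asks how the peaks differ in cells without Tet enzymes. The TKO ESC lists held 964, 4323 and 3262 peaks of all kinds, each fewer than any WT ESC list (4395 to 7113), and a lost peak cannot be told apart here from a shorter list. Of the 42 regions with a peak in every WT ESC library, 19 had none in any TKO ESC library, which is 45.2% (exact 95% interval 29.8% to 61.3%, counting error only). Among all 1532 regions in every WT ESC library 32.2% had none. That share counts peaks of every kind, and on the same footing 18 of the 42 (42.9%, exact 95% interval 27.7% to 59.0%) had no TKO ESC peak of any kind, an interval that includes it. Counting peaks of the same class, the share without a TKO ESC peak was 31.7% of intronic regions (222 of 701), 29.4% of 3′ UTR regions (10 of 34) and 14.1% of CDS regions (34 of 241), and the 5′ UTR interval of 29.8% to 61.3% includes the intronic share. The reverse was found for 0 of the 7 regions in every TKO ESC library, where the background over all regions was 1.73%. Within the 1703 batch 39 of 59 regions in both WT ESC libraries had no peak in either TKO ESC library, and 38 had none of any kind. The latter is 64.4% (exact 95% interval 50.9% to 76.4%), beside 44.3% of all regions. This interval covers counting error only and is no test, as the regions share their libraries. The other way it was 3 of 10 (2 for peaks of any kind), beside 19.8%. When peaks were required to reach the median fold enrichment of all peaks, 6.18, the count was 2 of 6, beside 26.9% of all regions at that level.

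By the highest lowest value in WT ESC, the regions without a TKO ESC peak were led by Mtch1, Tmtc2, Ubac1, Snrpe, Ywhaz and Zfp574. Mtch1, a mitochondrial outer membrane protein, had fold enrichments of 10.7, 8.89 and 7.86 in the WT ESC libraries, and it also had peaks in WT EB replicates 1 and 2 (6.47 and 6.14). Tmtc2, an endoplasmic reticulum protein, had 11.8, 6.94 and 6.98. Ubac1, a subunit of a ubiquitin ligase, had 5.96, 6.99 and 7.45. Snrpe, a core protein of spliceosomal snRNPs, had 5.94, 7.10 and 5.62, and Ywhaz, the 14-3-3 zeta adaptor, 8.21, 7.75 and 5.52. Zfp574, a zinc finger protein, had 5.37, 9.60 and 10.5. The 10 named were completed by Stc2, Ggnbp2, Aff1 and Adam10, of which the last, a membrane protease, also had a peak in both Tet2-KI ESC libraries and in neither Tet2deltaRBD-KI ESC library. In the regions of Mtch1, Snrpe, Ywhaz and Ggnbp2 a summit lay in an intron of another coding transcript. The summit of Mtch1 lay 12 nt into a 5′ UTR of 67 nt. The GC content of the 19 regions had a median of 74.5%, and that of the 23 that kept a TKO ESC peak 72.5%, while their median summits lay 106 and 121 nt before the start codon.

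The comparison of WT ESC with WT EB asks what changes when stem cells leave the undifferentiated state. Of the 42 regions in every WT ESC library 27 had no WT EB peak, or 64.3% (exact 95% interval 48.0% to 78.4%), beside 54.9% of all regions (the 27 had no WT EB peak of any kind). By class, it was 59.2% of intronic regions (415 of 701), 35.3% of 3′ UTR regions (12 of 34) and 22.4% of CDS regions (54 of 241), and the intronic share lies inside the interval. None of 1 region in every WT EB library was without a WT ESC peak, where the background was 2.61%. Within the 1703 batch the count was 49 of 59, the same for peaks of any kind (83.1%, exact 95% interval 71.0% to 91.6%, counting error only), beside 63.9%. In the reverse direction it was 8 of 11 (7 for peaks of any kind), beside 23.7%. The WT EB lists held 498, 1831 and 3532 peaks of all kinds, each fewer than any WT ESC list, and the same limit holds. Besides Tmtc2, Ubac1, Snrpe, Ywhaz, Zfp574 and Stc2, the 10 regions named by the same rule were those of Abl2, Hexim1, an inhibitor of the elongation factor P-TEFb, Nbea, a membrane trafficking protein, and Psrc1, a microtubule-binding protein. Hexim1 had fold enrichments of 6.74, 5.41 and 8.13 in WT ESC. Nbea had 5.80, 7.45 and 11.8, and Psrc1 9.11, 6.65 and 8.58.

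Of the 42 regions, 16 had no peak in TKO ESC or in WT EB, beside 26.5% of all regions in every WT ESC library, and 3 had one in WT EB only, beside 5.74%. A further 11 had one in TKO ESC only, beside 28.4%, and 12 in both, beside 39.4%. These counts have no test. They are of 5′ UTR peaks, whereas the shares beside them count peaks of every kind. The 16 also had no TKO ESC or WT EB peak of any kind. The highest fold enrichment in a WT EB library, 26.6 in replicate 3, was that of Caprin1, an RNA-binding protein of stress granules. Its summit lay 5 nt before the start codon along the spliced transcript, but the 200 bp interval did not hold the start codon. The value in replicate 2 was 7.71, and no library outside WT EB had a 5′ UTR peak there. The region of Caprin1 was among the 3 with the highest single values, after Peo1 and before Cdk19.

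**Figure D5:**
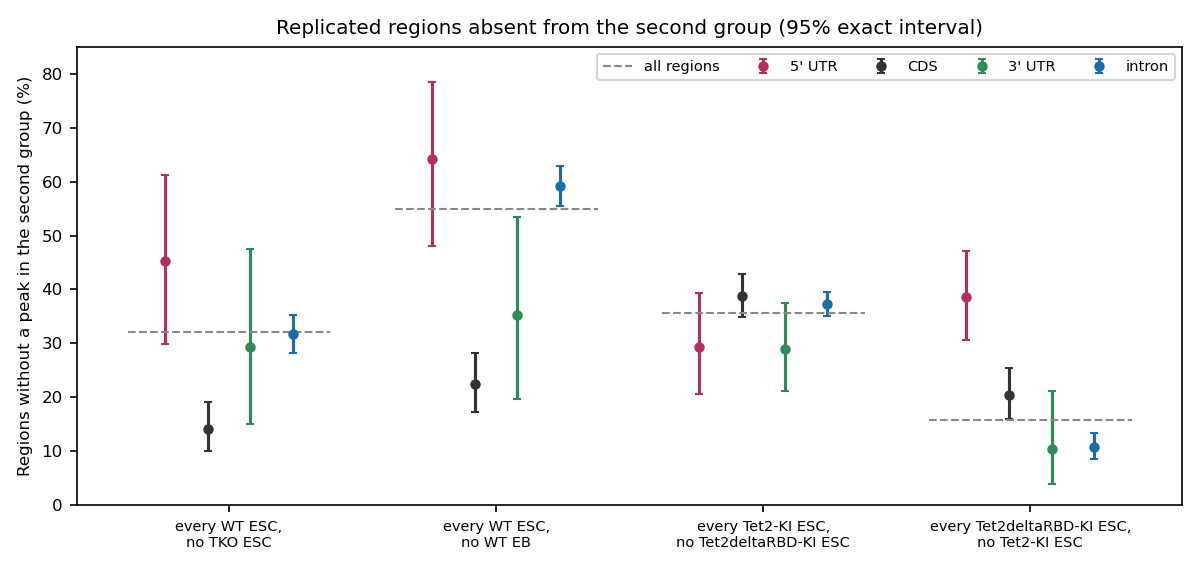
Share (%) of the regions present in every library of the first group that had no peak in any library of the second, for 5′ UTR, CDS, 3′ UTR and intronic regions (points, with exact 95% intervals for counting error) and for all regions (dashed lines). The points count peaks of the same class only and the lines peaks of every kind. The 5′ UTR share is above the line for regions of Tet2deltaRBD-KI ESC without a Tet2-KI ESC peak, at 38.6%, and for those of Tet2-KI ESC it is 29.3% as drawn and 22.2% when peaks of every kind are counted, below the line at 35.6%.

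The knock-in comparison asks whether the RNA-binding domain of Tet2 bears on where 5hmC is found. The Tet2-KI ESC lists held 10383 and 5781 peaks and the Tet2deltaRBD-KI ESC lists 4639 and 3318, so list length differs here too. Of 99 regions with a peak in both Tet2-KI ESC libraries, 29 (29.3%, exact 95% interval 20.6% to 39.3%) had no 5′ UTR peak in Tet2deltaRBD-KI ESC. In 7 of the 29 a Tet2deltaRBD-KI ESC peak of another class lay there, so 22 of 99 (22.2%, exact 95% interval 14.5% to 31.7%) had no peak of any kind, beside 35.6% of all regions. By class, counting peaks of the same class, it was 38.8% of CDS regions (231 of 596), 37.3% of intronic regions (652 of 1749) and 28.9% of 3′ UTR regions (37 of 128). The share without a peak of any kind moved with the libraries used. Without Tet2deltaRBD-KI ESC replicate 1 it was 42 of 99 (42.4%, 49 of 99 for 5′ UTR peaks), beside 66.9% of all regions, and without replicate 2 it was 29 of 99, beside 40.1%. Without Tet2-KI ESC replicate 1 it was 100 of 241 (41.5%), beside 55.4%, and without replicate 2 146 of 297 (49.2%), beside 69.3%. In the reverse direction it was 56 of 145 (38.6%, exact 95% interval 30.7% to 47.1%), beside 15.8% of all regions. By class, it was 20.4% of CDS regions (61 of 299), 10.8% of intronic regions (74 of 688) and 10.3% of 3′ UTR regions (6 of 58), and none of the 56 had a Tet2-KI ESC peak of another class. Taking each library on its own, 125 of the 262 regions of Tet2deltaRBD-KI ESC replicate 1 (47.7%) had no Tet2-KI ESC peak of the 5′ UTR class, and 117 (44.7%) none of any kind, beside 30.3% of all regions of that library. In replicate 2, the library that stood apart, it was 386 of 524 (73.7%), and 382 (72.9%) for peaks of any kind, beside 49.2%. The 56 regions had a median GC content of 74.5% and the 29 of 69.0%. In 42.9% of the 56, but 13.8% of the 29, the interval held the start codon, while 8.93% and 37.9% had their summit in the first 100 nt of the transcript. When summits in an intron of another coding transcript were left out, the 29 of 99 became 14 of 62 (22.6%), a rule for 5′ UTR summits that gives no share over all regions. These sets have no test.

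By the number of WT ESC libraries that also held the region, those found in both Tet2-KI ESC and no Tet2deltaRBD-KI ESC libraries were led by Adam10, present in 3 of 3 WT ESC libraries, followed with 1 of 3 each by Aftph, Mbtd1, 4930447C04Rik, Sipa1l1 and Osbpl1a. The reverse list was led by 1810013L24Rik, in 3 of 3 WT ESC libraries, followed by Ppp1r9b, Cdc42bpb and Hs2st1, in 2 of 3 each; others included Rc3h1, in 1 of 3. Ppp1r9b encodes spinophilin, Hs2st1 a heparan sulfate sulfotransferase and Rc3h1 the mRNA-decay factor roquin. 1810013L24Rik also had peaks in TKO ESC replicates 1 and 3.

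Among Polycomb genes, Eed, a core PRC2 subunit, had a region at chr7:97128946-97129394 on the minus strand, with low fold enrichments of 2.63, 2.83 and 3.82 in WT ESC and of 2.80 and 3.32 in TKO ESC replicates 1 and 3, and a peak in Tet2deltaRBD-KI ESC replicate 2. Suz12, another core subunit, had a peak in all 4 knock-in libraries and in none of the other 9. Mtf2 had fold enrichments of 6.95 and 4.42 in WT ESC replicates 1 and 2, of 10.9 in TKO ESC replicate 3, and of 9.87 and 5.40 in WT EB replicates 2 and 3, so WT ESC and WT EB overlapped. Phc1, of PRC1, was in 7 libraries with a GC content of 41.5%, and Rbbp7, a histone-binding subunit, in 3 libraries, with 9.55 and 9.74 in WT ESC. Jarid2, which recruits PRC2, had a region in Tet2-KI ESC replicate 1 alone.

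Mbd3, a subunit of the NuRD complex, had a region in the 3 WT ESC libraries and no other, with fold enrichments of 3.16, 3.54 and 3.78. Gadd45a, a stress-response protein linked to DNA demethylation, had values of 2.99 and 5.23 in WT ESC replicates 1 and 3 and peaks in 3 knock-in libraries. Klf5, a pluripotency factor, had a peak in both Tet2deltaRBD-KI ESC libraries and in WT ESC replicate 3, where its 1.59 was the lowest fold enrichment of any 5′ UTR peak. Dab1, an adaptor of Reelin signalling, had a region in Tet2-KI ESC replicate 2 alone.

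Of the translation factors, Eif5b, which joins the ribosomal subunits, was in all 3 WT ESC libraries (4.37, 4.42 and 2.71), in TKO ESC replicate 3 (5.34) and in WT EB replicate 2 (3.22), with its summit 4 nt before the start codon. Eif5a was in 3 libraries. Of the hnRNPs, Hnrnpd had 3.31, 5.16 and 5.87 in WT ESC, and Hnrnpf was in all 4 knock-in libraries and in WT ESC replicate 3. The decay factors Lsm14a, Cnot6 and Cnot7 were in 5, 5 and 3 libraries, Lsm14a in all of WT ESC (3.44, 2.57 and 3.91) with its summit 12 nt before the start codon. Cnot6 and Cnot7 are subunits of the CCR4-NOT deadenylase. Fgfr1, an FGF receptor, Gsk3b, a kinase of the Wnt pathway, and Kdm2a, a histone demethylase, were in 4, 3 and 3 libraries, with no group complete apart from Tet2deltaRBD-KI ESC for Fgfr1 and Kdm2a.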

How the data were processed

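The authors removed rRNA and tRNA reads with Bowtie2, trimmed with Trimmomatic, mapped with STAR to mm9 and called peaks of each IP against its own input with MACS2 (q < 0.05), without pooling replicates; versions are not given in the sources used here. The deposited lists hold 200 bp intervals and, for 9 libraries, the fold enrichment at the summit, a ratio computed by the authors' caller. The 13 inputs were not analysed here.

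Summits (interval midpoints) were placed on GENCODE M1 of NCBIM37 (mm9). No interval passed a chromosome end, and 163 peaks lay on sequences not in the reference. CDS included stop codons. Sequence was read with pysam 0.24.0. Libraries were the unit of every test: exact permutation tests between groups and exact sign-flip tests within libraries, computed with Python 3.11.15, numpy 2.4.6, pandas 2.3.3 and scipy 1.17.1 and tested on simulated data. Calls used a threshold of 0.05. Depth per sample is unknown, so intervals on shares cover counting error only. At most 1.97% of the shorter of any pair of lists had the same start in the other.

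Named regions were the 12 present in most libraries (ties by mean fold enrichment), up to 10 in every WT ESC library and in no TKO ESC or no WT EB library (up to 5 the other way), by their lowest fold enrichment in the first group, up to 6 each way between knock-in groups, those of listed gene families in at least 3 libraries, those of genes the study names and the 3 with the highest single value. The members and gene lists were chosen with earlier results of these data known. Alternatives were other overlaps, denominators, batches, thresholds and comparators and leaving out each replicate. Some regions that the rule names are not reported here.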

Additional observations from a re-analysis of the deposited data

How the results depend on the processing

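Of 193 alternative values, 153 kept their direction and their side of the threshold, or stayed within 1.5 times for counts. The cause of the others was not tested. Exact permutation tests between groups could not pass the threshold of 0.05 in any setting, since 3 against 3 libraries give no p below 0.1. The GC and pyrimidine differences from CDS peaks kept both in all alternatives but 1, the comparison of pyrimidines with 3′ UTR peaks, at -2.94 points. The fold enrichment difference passed the threshold against 3′ UTR peaks (-0.24), against intronic peaks (-0.18) and without WT EB replicate 1 (range without a replicate -0.11 to -0.050). The difference in share, WT ESC minus TKO ESC, was -0.18 points with strict 5′ UTR summits and -0.80 to 1.80 without a replicate. That between WT ESC and WT EB became 0.018 with strict summits, 0.67 in the 1703 batch, 0.79 of peaks in coding genes, 7.36 of exonic peaks and -1.16 to 1.47 without a replicate. The log2 number of WT ESC minus WT EB was -0.12 with lists of equal length; the knock-in difference in log2 number was -0.97 to 0.025 without a replicate.

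Leaving out a replicate moved the counts of regions to 20 of 42 to 43 of 73 (WT ESC without TKO ESC, highest count without WT ESC replicate 2 and highest share without TKO ESC replicate 1, 27 of 42), 0 to 2 (reverse), 27 of 42 to 56 of 73 (WT ESC without WT EB, highest count without WT ESC replicate 2 and highest share without WT EB replicate 1, 35 of 42), 0 to 6 (reverse, highest without WT EB replicate 1), 36 of 99 to 165 of 297 (Tet2-KI ESC without Tet2deltaRBD-KI ESC, highest without Tet2-KI ESC replicate 2) and 78 of 145 to 386 of 524 (reverse, highest without Tet2deltaRBD-KI ESC replicate 1, with the lowest share, 125 of 262, without replicate 2). Counting peaks of any kind in the second group, Tet2-KI ESC without Tet2deltaRBD-KI ESC gave 22 of 99. In the 1703 batch these were 39 of 59, 3 of 10, 49 of 59 and 8 of 11. With at least 2 of 3 replicates they were 64 of 105, 3 of 22, 82 of 105 and 6 of 17. With the fold enrichment at or above the median, WT ESC without TKO ESC and without WT EB gave 2 of 6 and 3 of 6. Strict summits gave 14 of 62 for Tet2-KI ESC without Tet2deltaRBD-KI ESC. In the presence of regions, same-numbered libraries did not deviate together (correlations of at most 0.0469), although the share of 5′ UTR peaks was highest in replicate 1, the library outside the 1703 batch, in each of the 3 groups without a knock-in. The numbers were not taken as pairs; with the replicate number as a block the log2 number differences were 1.68 (exact p = 0.25), 2.15 (exact p = 0.25) and -0.47 (exact p = 1), and the share differences 0.07, -0.21 and -7.31. With no depth, absence of a peak cannot be told from too few reads.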
